A study of Mus musculus with 20 samples.

Results

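Swiss 2, Swiss 8 and Swiss 9, mouse fibroblast clones labelled as preadipocytes, were compared with Swiss 3, a clone labelled non-adipogenic, on genome-wide expression arrays. The 12 arrays concerned, 3 per clone, are 12 of the 20 in the series and were taken by their titles. Swiss 3 was the non-adipogenic clone chosen because 2 of its arrays were as dim as those of the preadipose lines. That criterion uses no single gene's level, but the comparison was chosen with earlier results of these data known. They are 9 arrays of the preadipose lines Swiss 2, Swiss 8 and Swiss 9, set against 3 arrays of the non-adipogenic line Swiss 3. All of these lines are immortalized embryonic fibroblasts, cloned from the parental Swiss 3T3 population, and they carry no labelled transgene or targeted allele. Every culture was kept in DMEM with bovine serum, without differentiation inducers, and was collected while the cells were still proliferating. The remaining 8 arrays come from the preadipose line Swiss 19 (2 arrays) and the non-adipogenic lines Swiss 5 and Swiss 22 (3 arrays each), and serve below as a comparison of the same 2 classes that shares no array with the main one.

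Each line is a single clone, so the class "non-adipogenic" is represented by 1 clone, and class and clone identity cannot be told apart in this design. Whether the 3 arrays of a clone were hybridized from independent cultures is not stated in the labels. A p-value over arrays therefore covers their mutual spread alone, which may be technical.

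Preadipocytes are fibroblast-like cells committed to the fat lineage that switch on PPARγ and C/EBPα, the transcription factors that drive fat storage genes, only after growth arrest and hormonal induction. Before that, they divide like other fibroblasts. Dividing cells express the DNA replication genes under E2F factors and the mitosis genes under B-Myb and FoxM1, cells short of amino acids or committed to biosynthesis use ATF4, and cells that sense interferon turn on a shared set of antiviral genes.

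Levels are given in scaled units: each array's intensities were multiplied so that their trimmed mean was 500. Mean unscaled intensity lay between 25.6 and 52.5 on the 9 preadipose arrays and was 41.1, 40.0 and 72.0 on the Swiss 3 arrays, so Swiss 3 replicate 3 was the brightest of the 12, and results were also computed without it. After normalization it correlated with the other Swiss 3 arrays at r = 0.941 to 0.947, within the range of arrays of 1 line (0.912 to 0.953). Arrays of different preadipose lines correlated at 0.901 to 0.936, which overlaps that range. Preadipose and Swiss 3 arrays correlated at 0.865 to 0.893 (Pearson's r across 12502 genes, which are not independent replicates). For 11 of the 12 arrays the closest other array was of the same line. A level was taken as above background when it exceeded the 95th percentile of 27 bacterial control probe sets without spiked target, and this background lay between 67.5 and 156 scaled units on the 12 arrays.

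Among fibroblast markers, vimentin and type I collagen were high in all 4 lines, and 15 to 17 of the 19 fibroblast and progenitor markers lay above background in each. Vimentin (Vim), the intermediate filament of mesenchymal cells, ranged over 84519 to 105739 (median 97852) in the 9 preadipose arrays, against 57574, 55624 and 56842 in Swiss 3, and type I collagen (Col1a1) over 45910.1 to 78850 (median 53722) in the 9 preadipose arrays, against 51832, 58251 and 51828 in Swiss 3. The defining markers of smooth muscle (Myh11), skeletal muscle (Myog), endothelium (Pecam1) and leukocytes (Ptprc) were below background on average in all 4 lines, with highest values over the 9 preadipose arrays of 46.95, 154, 61.5 and 159.8 scaled units. The bone factor Sp7, the epithelial marker Epcam and the neuronal marker Rbfox3 lay above background in all 4 lines without differing (adjusted p = 0.931, 0.522 and 0.768 on arrays). The cartilage collagen Col2a1 was above background in 1 of the 3 preadipose lines, Swiss 3 being below it.

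Of 18193 measured genes, 8 (0.044%) differed between the preadipose lines and Swiss 3 when the line was the unit of replication: 2 were higher (0.011%) and 6 lower (0.033%). This line-level test was limma on the 4 line means, with a Benjamini-Hochberg adjusted p under 0.05. Its error is the spread among Swiss 2, Swiss 8 and Swiss 9, moderated toward a value pooled over all genes. The moderation used 2 residual and 4.11 prior degrees of freedom. The test assumes that Swiss 3, a lone line, varies as these lines do. At an unadjusted p under 0.05 it gave 2476 genes (13.6%), of which 1277 were higher (7.02%) and 1199 lower (6.59%). The array-level test of the same differences passed 3481 genes (19.1%): 1770 higher (9.73%) and 1711 lower (9.4%) in the preadipose lines. Its error is the spread between arrays of a line, moderated in the same way. Its calls are differences between these clones and say nothing about how far another clone would lie from them. The 9 preadipose arrays lay entirely on 1 side of the 3 Swiss 3 arrays for 3022 genes (16.6%), 1435 of them higher (7.89%) and 1587 lower (8.72%).

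The first of the 2 genes that rose at the line level was Lgals3, which encodes galectin-3, a lectin of the cytoplasm and cell surface that binds β-galactosides. It measured 5328, 5098 and 5578 scaled units on the Swiss 2 arrays, 3829, 3426 and 3651 on those of Swiss 8 and 7540.4, 7944 and 8216 on those of Swiss 9, against 24.6, 7.50 and 18.1 on those of Swiss 3. Swiss 3 was below background on all of its arrays, so the preadipose lines were at least 53.1-fold higher (mean 5623 ± 2147, SD of 3 line means, against 16.7 ± 8.64, SD of 3 arrays). The log2 difference was 6.84 ± 0.44 (SE, line level), with an adjusted p of 0.0214. The preadipose lines also differed among themselves for this gene (adjusted p = 0.00966, F test over arrays), Swiss 9 being the highest and Swiss 8 the lowest, yet the lowest of the 9 arrays stood far above every Swiss 3 array.

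Efemp1, which encodes a fibulin of elastic fibres and basement membranes, was the other gene that rose at the line level. It read 3078, 2572 and 2762 scaled units on the Swiss 2 arrays, 1707, 2344 and 2143 on those of Swiss 8 and 1312, 1601 and 1729 on those of Swiss 9, against 118, 29.99 and 19.5 on those of Swiss 3, the preadipose lines being at least 20.2-fold higher (log2 4.86 ± 0.41, adjusted p = 0.0408). Every Swiss 3 array lay below its own background.

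Cyba is the first of the 6 lower genes. It encodes p22phox, the membrane subunit of NADPH oxidases, and measured 10.1, 17.5 and 69.7 scaled units on the Swiss 2 arrays, 10.98, 93.2 and 16.01 on those of Swiss 8 and 19.01, 26.9 and 5.87 on those of Swiss 9, against 3358, 3291 and 3685 on those of Swiss 3. All 9 preadipose arrays read below the background of their line and all Swiss 3 arrays were far above it, a difference of at least 31.2-fold (log2 -5.997 ± 0.30, adjusted p = 0.0144).

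Smoc2 encodes a calcium-binding matricellular protein related to SPARC, and read 33.8, 267 and 49.2 scaled units on the Swiss 2 arrays, 30.2, 166 and 101 on those of Swiss 8 and 163, 103 and 127 on those of Swiss 9, against 5742, 5810.1 and 5485 on those of Swiss 3. Swiss 3 thus stood above the highest preadipose array, the preadipose lines being at least 45.3-fold lower on average (log2 -5.53 ± 0.36, adjusted p = 0.0214). Fap, the membrane serine protease called fibroblast activation protein, measured 203, 151 and 156 scaled units on the Swiss 2 arrays, 316, 161 and 243 on those of Swiss 8 and 212, 53.7 and 186 on those of Swiss 9, against 4955, 5205 and 4671 on those of Swiss 3. Its preadipose levels were low but above background in all 3 lines, which gave a measured 26.5-fold reduction (log2 -4.69 ± 0.35, adjusted p = 0.026).

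Fibin encodes a small secreted protein, first described in the zebrafish fin bud. It ranged over 86.4 to 270 (median 154) in the 9 preadipose arrays, against 3240.1, 3551 and 3230.5 in Swiss 3, 21.1-fold lower (log2 -4.31 ± 0.32, adjusted p = 0.026). The last members of the set are both interferon-induced: Gbp6, a guanylate-binding protein, and Ifi27l2a. Gbp6 ranged over 15.9 to 204 (median 74.3) in the 9 preadipose arrays, against 2169.9, 2569 and 2110.4 in Swiss 3, at least 20.7-fold lower (log2 -4.59 ± 0.31, adjusted p = 0.0214). Ifi27l2a ranged over 5.49 to 131 (median 38.6) in the 9 preadipose arrays, against 1080, 1015 and 989 in Swiss 3, at least 9.32-fold lower (log2 -3.88 ± 0.29, adjusted p = 0.026). In neither did any preadipose array reach the lowest Swiss 3 array.

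The count of 8 rests on single arrays and on the pseudocount: without 1 array it was 3, 1 and 0 (Swiss 2 replicates 1, 2 and 3), 5 and 5 (Swiss 8 replicates 1 and 3), 4, 5 and 3 (Swiss 9 replicates 1, 2 and 3) and 7 (Swiss 3 replicate 3), and 4 without the line Swiss 9. It was 0 at a pseudocount of 8 and 376 with the pseudocount made 4 times larger, while all 8 genes kept their direction under each of the 28 settings computed for them.

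**Figure D1:**
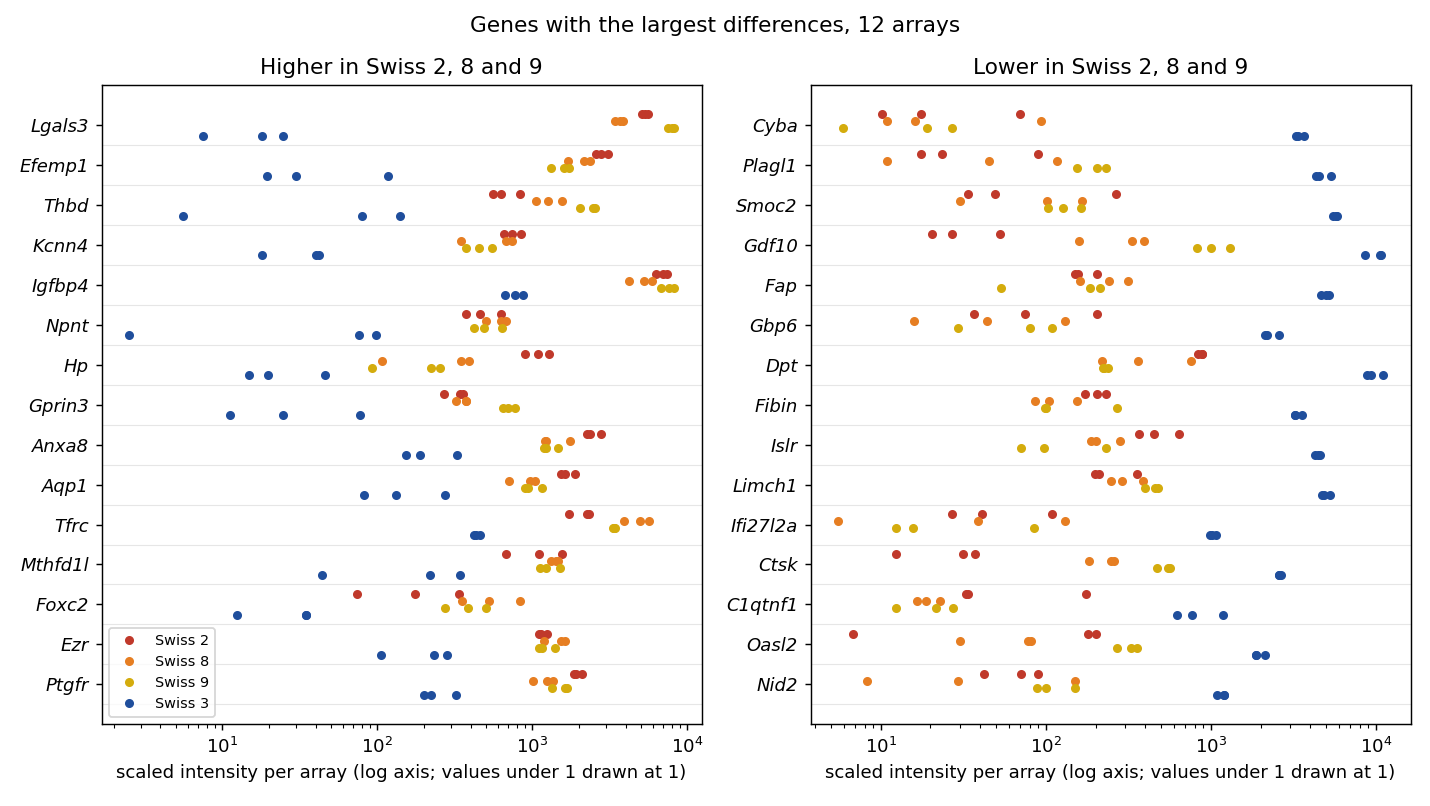
Scaled intensity (horizontal log axis) of the 15 genes with the largest difference in each direction whose arrays do not overlap, 1 point per array, coloured by line. Lgals3 and Efemp1 on the left and Cyba, Smoc2, Fap, Gbp6, Fibin and Ifi27l2a on the right passed the line-level test; for every gene the 3 Swiss 3 points lie apart from the 9 preadipose points.

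A further 22 genes completed the 15 largest differences in each direction without passing the line-level test; all had an unadjusted p under 0.05 there, and no overlap of arrays. Thrombomodulin (Thbd), the endothelial receptor that turns thrombin toward protein C, ranged over 557 to 2531 (median 1253) in the 9 preadipose arrays, against 140.2, 79.97 and 5.58 in Swiss 3 (at least 13.5-fold higher, adjusted p = 0.138 on line means and 4.56e-05 on arrays). Swiss 9 was the highest line and Swiss 2 the lowest. Igfbp4, a secreted binding protein of insulin-like growth factors, ranged over 4205 to 8150.2 (median 6755) in the 9 preadipose arrays, against 669, 772 and 876 in Swiss 3 (8.42-fold higher, adjusted p = 0.0798 and 3.31e-06 in the same order of tests). The transferrin receptor Tfrc, which imports iron, ranged over 1719 to 5610.1 (median 3347) in the 9 preadipose arrays, against 458, 419.8 and 434 in Swiss 3 (7.82-fold higher, 0.138 and 3.31e-06), with Swiss 8 above the other preadipose lines.

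The others on this side were Kcnn4 (a calcium-activated potassium channel), Npnt (the matrix protein nephronectin), Hp (haptoglobin), Gprin3, Anxa8 (an annexin), Aqp1 (a water channel), Mthfd1l (a mitochondrial folate enzyme), Foxc2 (a forkhead factor of mesoderm), Ezr (ezrin, which links membrane to actin) and Ptgfr (the prostaglandin F receptor). Anxa8, Aqp1, Ptgfr, Mthfd1l and Ezr had measured folds of 6.16 (Ezr) to 7.71 (Anxa8), and Kcnn4, Npnt, Hp, Gprin3 and Foxc2, below background in Swiss 3, had only lower bounds, of 3.62 (Foxc2) to 5.64 (Kcnn4). Other probe sets did not all give the same size: a second one of Ezr had a log2 difference of 0.08 and the dim second one of Gprin3 had -0.29. Those of Ptgfr ran from 1.18 to 4.12, next to 2.66 at the one used. Those of Npnt ran from 1.01 to 1.71, next to 2.97 at the one used, and the second one of Kcnn4 had 1.45, next to 3.34. Hp was uneven among the preadipose lines, at 1090.1 for line Swiss 2, 282 for Swiss 8 and 189 for Swiss 9, against 26.9 for Swiss 3 (line means, F test among the 3 lines adjusted p = 0.0373).

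Plagl1, an imprinted zinc-finger factor, was among the lower genes that missed the line-level test. It ranged over 10.98 to 233 (median 90.2) in the 9 preadipose arrays, against 4330, 5335 and 4493 in Swiss 3, at least 32.1-fold lower (adjusted p = 0.116 on line means and 1.13e-05 on arrays). Gdf10, a ligand of the TGF-β superfamily, stood at line means of 33.4 for line Swiss 2, 296 for Swiss 8 and 1039 for Swiss 9, against 9941 for Swiss 3, at least 20.2-fold lower. Swiss 2, Swiss 8 and Swiss 9 thus formed a graded series (F test adjusted p = 5.83e-04), and the line-level adjusted p was 0.217. Cathepsin K (Ctsk), a collagen-degrading protease, had the same order of lines at 27.01, 229 and 528, against 2600.3 in Swiss 3. Dermatopontin (Dpt), a small matrix protein that binds decorin, went the other way among the preadipose lines, at 866, 446 and 228, against 9706 in Swiss 3. Islr, Limch1, C1qtnf1, Oasl2 and Nid2 (nidogen 2, a basement membrane protein) made up the rest. Plagl1 had log2 differences of -2.44 and -0.47 at its other, dimmer probe sets.

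Genes of cell division were higher as a list. All 36 measured mitosis genes had a positive log2 difference, and 35 rose in the array-level test with none falling, against 9.73% and 9.4% of all genes. Their median log2 difference was 1.29, against 0.02 over all genes. The same shares of all genes stand beside every array-level list count below, unless another scaling or a left-out array is named. Mad2l1, a spindle checkpoint protein, ranged over 1751 to 3291 (median 2727) in the 9 preadipose arrays, against 812, 477 and 898 in Swiss 3 (3.59-fold higher, log2 1.84 ± 0.19 SE over arrays, adjusted p = 1.17e-04). The proliferation antigen Mki67 ranged over 2394 to 5151 (median 3843) in the 9 preadipose arrays, against 1099.7, 1199.5 and 1233 in Swiss 3 (3.19-fold, adjusted p = 3.50e-05). Cdc20, an activator of the anaphase-promoting complex, ranged over 3881 to 6434 (median 5327) in the 9 preadipose arrays, against 1889, 1952 and 1933 in Swiss 3 (2.76-fold, adjusted p = 3.32e-05), and its partner ubiquitin-conjugating enzyme Ube2c over 5442 to 7737 (median 6795) in the 9 preadipose arrays, against 2667, 2272 and 2249.9 in Swiss 3 (2.75-fold, adjusted p = 2.99e-05). The exception that did not pass was Kif4, a chromosome kinesin (log2 0.35, adjusted p = 0.247). None of the 36 passed the line-level test, nor the F test among Swiss 2, Swiss 8 and Swiss 9. In RNA from whole cultures, a smaller share of dividing cells and less RNA per dividing cell cannot be told apart.

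The promoters of 3 of these genes are shown because their RNA levels differed on arrays and their window holds the 6-letter core TTTGAA. This is the core of the cell cycle homology region, to which the B-Myb and DREAM complexes are known to bind. The 250 bases before the start site are printed 5′ to 3′ on the gene's strand (RefSeq, GRCm38.p6), with matches on either strand in capitals. They lie at chr7:135716380-135716629 on the minus strand, chr4:118437344-118437593 on the minus strand and chr2:164769679-164769928 on the plus strand.
Mki67: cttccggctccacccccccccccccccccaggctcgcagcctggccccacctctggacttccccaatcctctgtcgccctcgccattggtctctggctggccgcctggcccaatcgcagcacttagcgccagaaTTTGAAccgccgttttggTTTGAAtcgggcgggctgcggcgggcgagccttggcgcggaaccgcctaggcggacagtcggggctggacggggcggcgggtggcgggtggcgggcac
Cdc20: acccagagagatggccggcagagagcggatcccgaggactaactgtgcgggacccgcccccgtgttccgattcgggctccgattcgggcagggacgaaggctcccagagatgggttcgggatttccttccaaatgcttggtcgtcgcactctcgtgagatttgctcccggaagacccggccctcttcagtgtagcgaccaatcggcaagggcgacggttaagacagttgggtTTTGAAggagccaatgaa
Ube2c: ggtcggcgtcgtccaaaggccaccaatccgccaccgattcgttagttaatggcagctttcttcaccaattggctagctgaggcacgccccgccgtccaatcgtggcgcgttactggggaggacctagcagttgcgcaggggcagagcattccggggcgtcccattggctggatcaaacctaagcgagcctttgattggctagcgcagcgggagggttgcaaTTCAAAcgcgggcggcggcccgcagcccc
Mki67 has a pair of matches, beginning 116 and 98 bases before its start, Cdc20 one at 18 bases and Ube2c one at 29 bases. The core was found in 10 of the 31 mitosis genes with a window (32.3%) and in 14.1% of the windows of all 14452 measured genes that have one. A match is a description of the letters and not a measured site.

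DNA replication genes were higher too. Of 34 measured, 29 rose on arrays and none fell, with a median log2 difference of 1.12; without Swiss 3 replicate 3, when 7.46% of all genes rose and 6.57% fell, the count was 25, and for the mitosis genes 35. With the pseudocount added before scaling the median of the replication genes was 0.72, with 29 again higher. Mcm3, a subunit of the replicative helicase, ranged over 3520.4 to 5547 (median 4038) in the 9 preadipose arrays, against 807, 1105 and 1042 in Swiss 3 (4.28-fold higher, adjusted p = 1.13e-05). All of Mcm2, Mcm4, Mcm5, Mcm6 and Mcm7 rose as well, by log2 1.77, 1.78, 1.95, 1.12 and 1.12. Rrm2, a subunit of ribonucleotide reductase, rose by 1.78, and Cdc45, which loads with the helicase, by 1.75. Orc1, of the origin recognition complex, had a log2 difference of -0.57 that did not pass (adjusted p = 0.458). The E2F site core TTTGGCGC lay in 3 of 27 replication windows (11.1%), against 0.775% of all windows. Cyclin D1 (Ccnd1), which carries growth factor signals to the cell cycle and is listed with the Wnt pathway, was also 2.91-fold higher (log2 1.40, adjusted p = 1.90e-05).

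Summed over the list, the mitosis genes gave 86515 to 111291 scaled units in the preadipose arrays, against 41425, 38574 and 41151 in Swiss 3. The replication genes gave 74695 to 118825, against 38364, 38454 and 38690.4 in Swiss 3. The bright replicate 3 of Swiss 3 therefore lay with the other 2. Growth state at harvest was not recorded per array; its part in these differences was not tested.

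Genes that restrain the cycle leaned the other way: 11 of 26 fell on arrays and 2 rose (Gas2 and Btg1), with a median log2 difference of -0.41. Cdkn2c, the p18 inhibitor of cyclin D kinases, ranged over 775 to 1417 (median 1021) in the 9 preadipose arrays, against 5481, 6312 and 5994 in Swiss 3, 5.84-fold lower (log2 -2.59 ± 0.17, adjusted p = 1.13e-05). Gas6, a secreted growth arrest factor that binds TAM receptors, fell by 1.81 on the log2 scale, but the lines were unequal at 6485 for line Swiss 2, 2374 for Swiss 8 and 1899 for Swiss 9, against 10246 for Swiss 3 (F test adjusted p = 0.00504). Other kinase inhibitors moved little: Cdkn1a and Cdkn1b had log2 differences of -0.10 and -0.42 and did not pass.

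**Figure D2:**
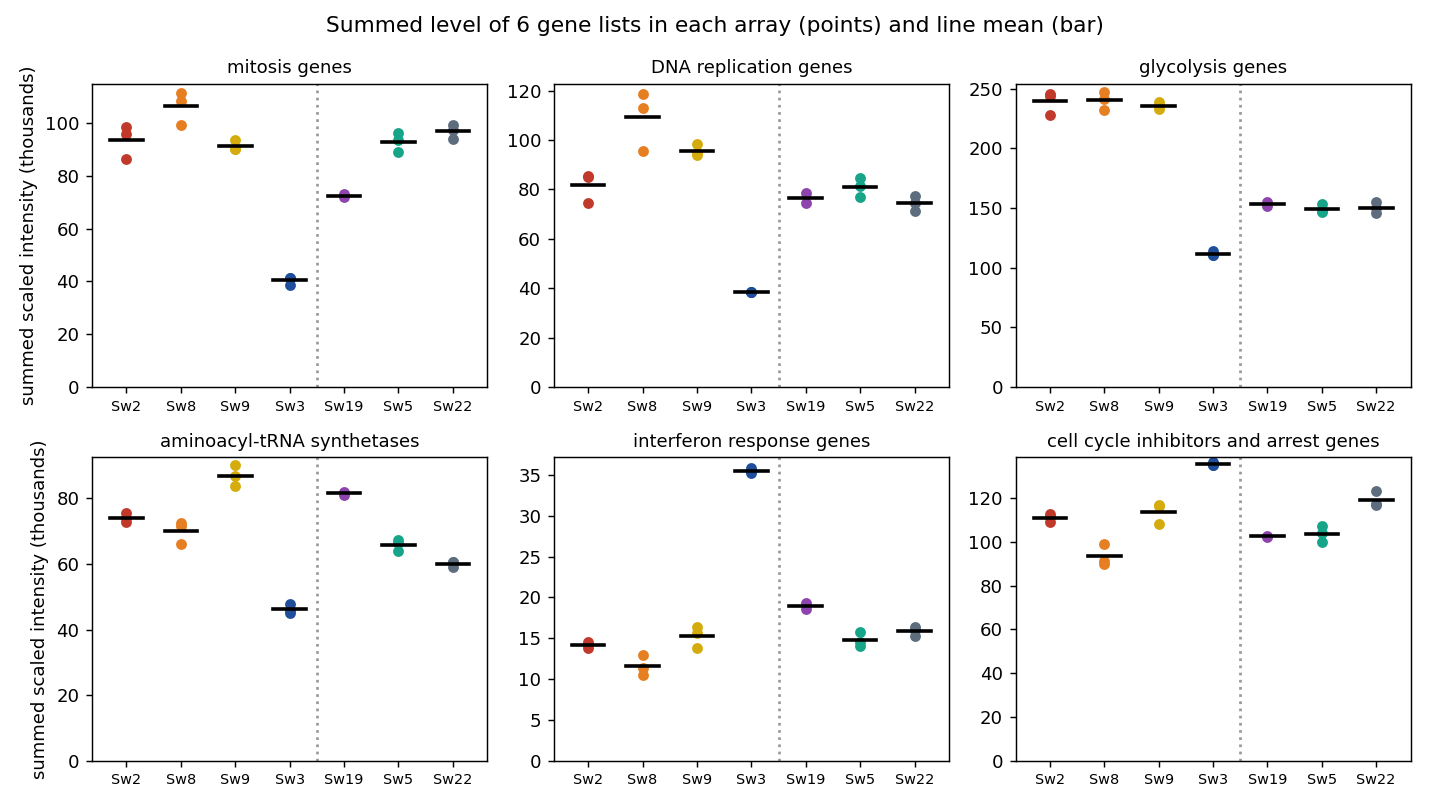
Summed scaled intensity (vertical axis, in units of 1000) of 6 gene lists on each array (points) with the line mean (bar); Sw2 to Sw22 are the lines, and the dotted line separates the 4 compared lines from Swiss 19, Swiss 5 and Swiss 22. For mitosis genes the 9 preadipose arrays lie between 86515 and 111291 and the Swiss 3 arrays between 38574 and 41425, while Swiss 5 and Swiss 22, which are non-adipogenic too, average 92854 and 96867.

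Amino acid supply genes were raised in part. Among 31 genes induced by ATF4, 17 rose on arrays and none fell (median log2 0.57). Asns, which makes asparagine, ranged over 6453 to 11605 (median 10806) in the 9 preadipose arrays, against 1993, 2149 and 1869 in Swiss 3 (4.76-fold higher, log2 2.13 ± 0.09, adjusted p = 3.31e-06). Trib3, a pseudokinase induced by ATF4, was 4.17-fold higher and the mitochondrial folate enzyme Mthfd2 4-fold higher. Atf4 itself rose by 0.97 on the log2 scale, whereas Ddit3 and Atf3, the stress factors of the same pathway, had differences of -0.05 and -0.18 that did not pass. Of 19 aminoacyl-tRNA synthetases, 16 rose and 1 (Qars, for glutamine) fell, with a median of 0.72. Tars, for threonine, ranged over 4074 to 5745 (median 4652) in the 9 preadipose arrays, against 1702, 1829 and 1822 in Swiss 3 (2.67-fold higher, adjusted p = 1.48e-05). Without Swiss 3 replicate 3 the counts were 15 higher for the ATF4 list and 13 higher with none lower for the synthetases. The letters TGATGNAAT of the C/EBP-ATF element lay in 2 of 27 ATF4-list windows (7.41%) and 2 of 12 synthetase windows (16.7%), against 0.65% of all windows.

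Glycolysis genes were higher as well: 13 of 21 rose and 1, Ldhb, fell, with a median of 0.74. Lactate dehydrogenase A (Ldha), which turns pyruvate into lactate, ranged over 38865 to 49594 (median 44286) in the 9 preadipose arrays, against 10936, 10776 and 10823 in Swiss 3 (4.15-fold higher, log2 1.87 ± 0.09, adjusted p = 3.90e-06). The preadipose lines hardly differed for it, with line means of 42677, 47469 and 44759 in Swiss 2, Swiss 8 and Swiss 9, against 10845 in Swiss 3. The lactate exporter Slc16a3 rose by 1.34 and the glucose importer Slc2a1 by 0.97. Of 29 respiratory chain subunits 5 rose and 4 fell, against 9.73% and 9.4% of all genes, the median being 0.01. This split depended on the scaling: 10 rose and 0 fell under median centring, and 9 rose and 3 fell with linear scaling only. Cytochrome c (Cycs) was 2.96-fold higher (adjusted p = 2.82e-05). Its other probe sets had log2 differences of 1.57, 1.31 and, at a dim one, -0.75. Of 31 antioxidant genes 9 rose, among them the glutathione synthesis enzyme Gclc (2.43-fold), and 5 fell, among them the glutathione transferase Gsta4 (3.16-fold lower, adjusted p = 1.13e-05). Cholesterol synthesis genes had 0 higher and 5 lower of 20, against the same shares of all genes. Insig1, a sterol-regulated brake on the pathway, was 1.65-fold lower (adjusted p = 0.00216 on arrays). The list's median was -0.06 and changed sign with the scaling.

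Interferon response genes were lower. Of 28 measured, 19 fell on arrays and none rose (with and without Swiss 3 replicate 3), and the median log2 difference was -1.22 (-0.69, with 21 lower, when the pseudocount was added before scaling). Oasl2, an antiviral protein of the oligoadenylate synthetase family, ranged over 6.76 to 357 (median 180.3) in the 9 preadipose arrays, against 1872, 2134 and 1866 in Swiss 3, at least 10.4-fold lower (log2 -3.72 ± 0.43, adjusted p = 2.62e-04). Tetherin (Bst2), which holds budding virus particles on the cell, ranged over 120.5 to 968 (median 587) in the 9 preadipose arrays, against 3161, 2859 and 3221 in Swiss 3 (5.62-fold lower, adjusted p = 0.00102). Oas1a, an RNA-sensing synthetase, ranged over 32.6 to 311 (median 80.1) in the 9 preadipose arrays, against 871, 747 and 637 in Swiss 3 (at least 5.76-fold lower). The GTPase Gbp2 ranged over 95.5 to 385 (median 282) in the 9 preadipose arrays, against 1572, 1402 and 1696 in Swiss 3 (5.64-fold lower), and Ifit3, which binds foreign RNA with its relatives, over 258 to 636 (median 471) in the 9 preadipose arrays, against 2416, 2254 and 2571 in Swiss 3 (5.13-fold lower). The signal-transducing members Stat2, Irf9 and Irf7 also fell, with log2 differences of -1.16, -1.63 and -0.93. Classical members that did not pass included Mx1, Mx2, Rsad2 and Oasl1, with log2 differences of -0.51, -0.03, 0.10 and 0.08.

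Promoters of 4 of these genes are shown because they fell and hold the core of the interferon-stimulated response element, which is spelled here as GAAA, any 2 bases, and GAAA again. The 250 bases before the start site are given 5′ to 3′ on the gene's strand (RefSeq, GRCm38.p6), with matches on either strand in capitals, overlapping matches joined. They lie at chr8:71537473-71537722 (minus strand), chr5:120907526-120907775 (minus strand), chr3:142620413-142620662 (plus strand) and chr19:34583279-34583528 (plus strand).
Bst2: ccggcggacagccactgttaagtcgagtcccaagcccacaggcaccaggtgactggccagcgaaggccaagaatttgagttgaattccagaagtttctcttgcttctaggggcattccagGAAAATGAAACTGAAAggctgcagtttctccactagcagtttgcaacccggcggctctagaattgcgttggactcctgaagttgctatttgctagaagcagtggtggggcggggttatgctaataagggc
Oas1a: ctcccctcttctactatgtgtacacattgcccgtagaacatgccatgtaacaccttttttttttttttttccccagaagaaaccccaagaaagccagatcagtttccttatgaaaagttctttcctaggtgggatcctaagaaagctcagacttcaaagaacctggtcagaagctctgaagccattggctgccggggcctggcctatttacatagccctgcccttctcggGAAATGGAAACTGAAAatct
Gbp2: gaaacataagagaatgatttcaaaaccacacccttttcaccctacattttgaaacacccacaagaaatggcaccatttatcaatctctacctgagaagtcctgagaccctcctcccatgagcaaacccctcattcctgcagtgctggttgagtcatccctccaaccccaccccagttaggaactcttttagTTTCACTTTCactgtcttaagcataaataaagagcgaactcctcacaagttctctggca
Ifit3: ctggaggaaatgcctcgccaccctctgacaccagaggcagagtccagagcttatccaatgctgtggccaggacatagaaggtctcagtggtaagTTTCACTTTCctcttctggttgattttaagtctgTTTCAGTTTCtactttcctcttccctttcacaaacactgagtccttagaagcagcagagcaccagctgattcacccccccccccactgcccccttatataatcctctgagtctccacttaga
Bst2 and Oas1a carry a pair of overlapping matches each, beginning 130 and 20 bases before the start, Gbp2 one on the opposite strand at 59 bases, and Ifit3 a pair on the opposite strand at 156 and 122 bases. The core was found in 12 of the 23 interferon genes with a window (52.2%), against 3.13% of all windows. It was present in 10 of the 17 that fell (58.8%) and 2 of the 6 that did not pass.

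Antigen presentation genes, part of which respond to interferon, had 7 lower and 0 higher of 15, with a median of -0.71. Psmb8, a subunit of the immunoproteasome, ranged over 35.7 to 638 (median 377) in the 9 preadipose arrays, against 1461, 1487 and 1458 in Swiss 3 (3.85-fold lower, adjusted p = 0.00148), and the class I heavy chain H2-K1 fell by 1.75 on the log2 scale. Summed over the interferon list, the preadipose arrays gave 10553 to 16379.8 scaled units, against 35274, 35878 and 35457 in Swiss 3. The 16 leukocyte markers summed to 3085 to 3897, against 3946 to 4370.1 in Swiss 3. Of them 1 rose and 1 fell (lysozyme, Lyz2, 3.6-fold lower), and Ptprc was below background in every line.

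Matrix glycoproteins and proteoglycans fell more often than they rose. Of 41 measured, 19 fell, 5 rose and 17 did not pass (15 fell under median centring), with a median of -0.51; without Swiss 3 replicate 3 the counts were 16 and 4. Beside Smoc2, Dpt and Nid2, the small proteoglycans decorin (Dcn) and lumican (Lum), which bind collagen fibrils, were lower. Decorin was uneven among the lines, at 21079.9 for line Swiss 2, 6627 for Swiss 8 and 5450.5 for Swiss 9, against 54324 for Swiss 3 (4.92-fold lower, F test adjusted p = 0.0103). Fibronectin (Fn1) and versican (Vcan) went up with Efemp1, by 2.52-fold and 2.74-fold. Collagen chains were split, 2 higher and 5 lower of 22 (3 lower under median centring), against 9.73% and 9.4% of all genes. Col6a3 was 2.89-fold higher (adjusted p = 1.89e-04 on arrays), while Col6a1, which assembles with it, fell by 0.87 on the log2 scale. Among 28 matrix proteases and inhibitors, 9 fell and 3 rose. Htra1, a secreted serine protease, ranged over 358 to 678 (median 550.1) in the 9 preadipose arrays, against 4780.2, 5770.1 and 5095 in Swiss 3 (10-fold lower, adjusted p = 3.31e-06). The 3 that rose are inhibitors or a receptor of proteases: Slpi (6.04-fold), Timp1 (3.8-fold) and the urokinase receptor Plaur (1.77-fold).

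Surface receptors and growth factor pathways showed both directions. Pdgfra, the receptor of PDGF-A that marks fibroblast progenitors, ranged over 3313 to 5746 (median 4267) in the 9 preadipose arrays, against 28851, 30795 and 28648 in Swiss 3 (6.47-fold lower, log2 -2.71 ± 0.16, adjusted p = 7.48e-06), and Pdgfrb was 2-fold lower. The other 4 PDGF genes did not pass. Of 28 integrins and cadherins, 5 rose and 4 fell, against 9.73% and 9.4% of all genes. Alcam, an adhesion molecule of the immunoglobulin family, ranged over 239 to 538 (median 359) in the 9 preadipose arrays, against 165, 74.97 and 12.6 in Swiss 3 (at least 3.3-fold higher, adjusted p = 0.00222).

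In the BMP and TGF-β list 14 of 46 fell and 7 rose, among them, beside Gdf10, the ligands Bmp4 (log2 -2.44) and Tgfb2 (log2 -2.30) below Swiss 3 and the latency protein Ltbp1 (log2 1.70) above it. The Wnt list had 7 lower and 2 higher of 43, close to the 19.1% of all genes that passed in either direction. The antagonist Sfrp1 ranged over 147 to 607 (median 319.7) in the 9 preadipose arrays, against 2374, 2022 and 2066 in Swiss 3 (6.38-fold lower), and the ligand Wnt5a was 3.05-fold lower. In the FGF and IGF list 9 of 31 fell and 6 rose, the risers including 3 IGF binding proteins (Igfbp4, Igfbp5 and Igfbp6) and the insulin receptor adaptor Grb14 (4.82-fold). Of 22 Notch and Hedgehog genes 5 fell, 1 (Heyl) rose and 16 did not pass. Cdon, a Hedgehog co-receptor, ranged over 391 to 1614 (median 1102) in the 9 preadipose arrays, against 6005, 6172 and 5577 in Swiss 3 (5.87-fold lower), and Boc, Gas1, Gli2 and Gli3 fell, with log2 differences of -0.96, -1.02, -1.36 and -1.15. The receptors Ptch1 and Smo and the effector Gli1 of the Hedgehog pathway had log2 differences of 0.55, 0.14 and -0.70 and did not pass.

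Genes that control fat cell formation moved in both directions. Among 26 adipogenic regulators 4 rose (Ebf2, Arntl, Cebpg and Cebpd) and 2 fell (Klf9 and Klf15), against 9.73% and 9.4% of all genes. Their median log2 difference was 0.12. Klf15 was near background, at 5.49 to 17.5 in the 9 preadipose arrays, against 95.9, 287 and 29.3 in Swiss 3 (at least 1.25-fold lower). Without Swiss 3 replicate 3, 4 regulators rose and 1 fell, against 7.46% and 6.57% of all genes. The master regulator Pparg ranged over 451 to 856 (median 599) in the 9 preadipose arrays, against 431, 412 and 577 in Swiss 3 (log2 0.44 ± 0.17, adjusted p = 0.102), and the ranges of the arrays overlapped. Cebpa overlapped too, with a log2 difference of 0.15 (adjusted p = 0.671). The preadipocyte factor Zfp423 was below background in all 4 lines, so its level was not measured. Ebf2, an early B-cell factor expressed in adipogenic precursors, was at least 2.77-fold higher (adjusted p = 0.00387).

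Of 26 inhibitors of adipogenesis 10 fell and 4 rose, a larger share than the 19.1% of all genes that passed, with a median log2 difference of -0.14. Under median centring 6 fell and 4 rose. The 10 included Wnt5a, Gli2, Gli3, Gata2, the Hippo coactivators Yap1 and Wwtr1, Smad3 and β-catenin (Ctnnb1), and the folds of the last 4 lay between 1.21 and 1.41. The 4 that rose were Foxa2 (at least 4.43-fold), Trib3, Sox9 (2.28-fold) and Dlk1 (1.66-fold), the last a surface protein that holds preadipocytes undifferentiated. In the list of adipocyte genes 4 of 27 rose and 4 fell, against 9.73% and 9.4% of all genes. Lipoprotein lipase (Lpl), which releases fatty acids from lipoproteins, ranged over 1018 to 3856 (median 3002) in the 9 preadipose arrays, against 458, 539.8 and 686 in Swiss 3 (4.67-fold higher, adjusted p = 8.79e-05). The fatty acid carrier Fabp4 went the other way, at 119 to 479.7 (median 376) in the 9 preadipose arrays, against 1191, 1407 and 1505 in Swiss 3 (4.33-fold lower, adjusted p = 0.00243). Mest, an imprinted gene linked to fat cell size, was 8.63-fold lower.

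Of 31 HOX genes 4 fell and none rose, a share close to the 9.4% of all genes that fell. Hoxa7 was among the 4, at 16.9 to 177 (median 65.9) in the 9 preadipose arrays, against 376, 615 and 598 in Swiss 3 (at least 4.38-fold lower). Of 38 mesoderm patterning factors 7 fell and 3 rose, against 9.4% and 9.73% of all genes, Foxc2 (log2 2.69) being among the risers. The medians of both lists were near 0 with a sign that depended on the scaling. Imprinted genes had 9 lower and 3 higher of 23: Plagl1, Mest, Meg3 and Cdkn1c were among the lower ones (Meg3 6.61-fold lower).

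Immediate early genes, which serum induces, had 7 higher and 2 lower of 28. Fosl1, an AP-1 subunit, ranged over 2014 to 3251 (median 2803) in the 9 preadipose arrays, against 571, 259.9 and 533 in Swiss 3 (5.89-fold higher, adjusted p = 3.32e-05), and Myc was 2.46-fold higher, while Fos fell by 1.91 on the log2 scale. Among 29 chemokines and cytokines 8 fell and 3 rose, with the chemokine Ccl9 6.19-fold higher and the peptide hormone cholecystokinin (Cck) lower. Cck was graded, at 119 for line Swiss 2, 873 for Swiss 8 and 1433 for Swiss 9, against 4584 for Swiss 3 (F test adjusted p = 8.08e-04). Of 20 complement and coagulation genes 5 rose, among them Thbd, and 6 fell, among them the chaperone clusterin (Clu, 9.54-fold lower).

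Of the 19 fibroblast and progenitor markers 3 rose and 6 fell on arrays, Fap, Pdgfra and Pdgfrb among the 6. Markers of other cell types were checked beside these results. Of 19 contractile markers 3 rose and 1 fell, with smooth muscle actin (Acta2) 2.08-fold higher (log2 -0.07 and 0.08 at its other, dim probe sets). Of the rest, skeletal muscle had 0 higher and 1 lower of 18, bone and cartilage 1 and 0 of 17, endothelium 0 and 1 (Ecscr) of 18, epithelium 0 and 0 of 18, and neural and glial markers 2 (one of them Tubb3) and 1 of 16. The share of members that passed in each of these 5 lists was below the 19.1% of all genes. Alpl, a bone marker, lay apart on all arrays (56.05 to 307 (median 201) in the 9 preadipose arrays, against 534, 592 and 414 in Swiss 3) but missed the array-level threshold (adjusted p = 0.0515).

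**Figure D3:**
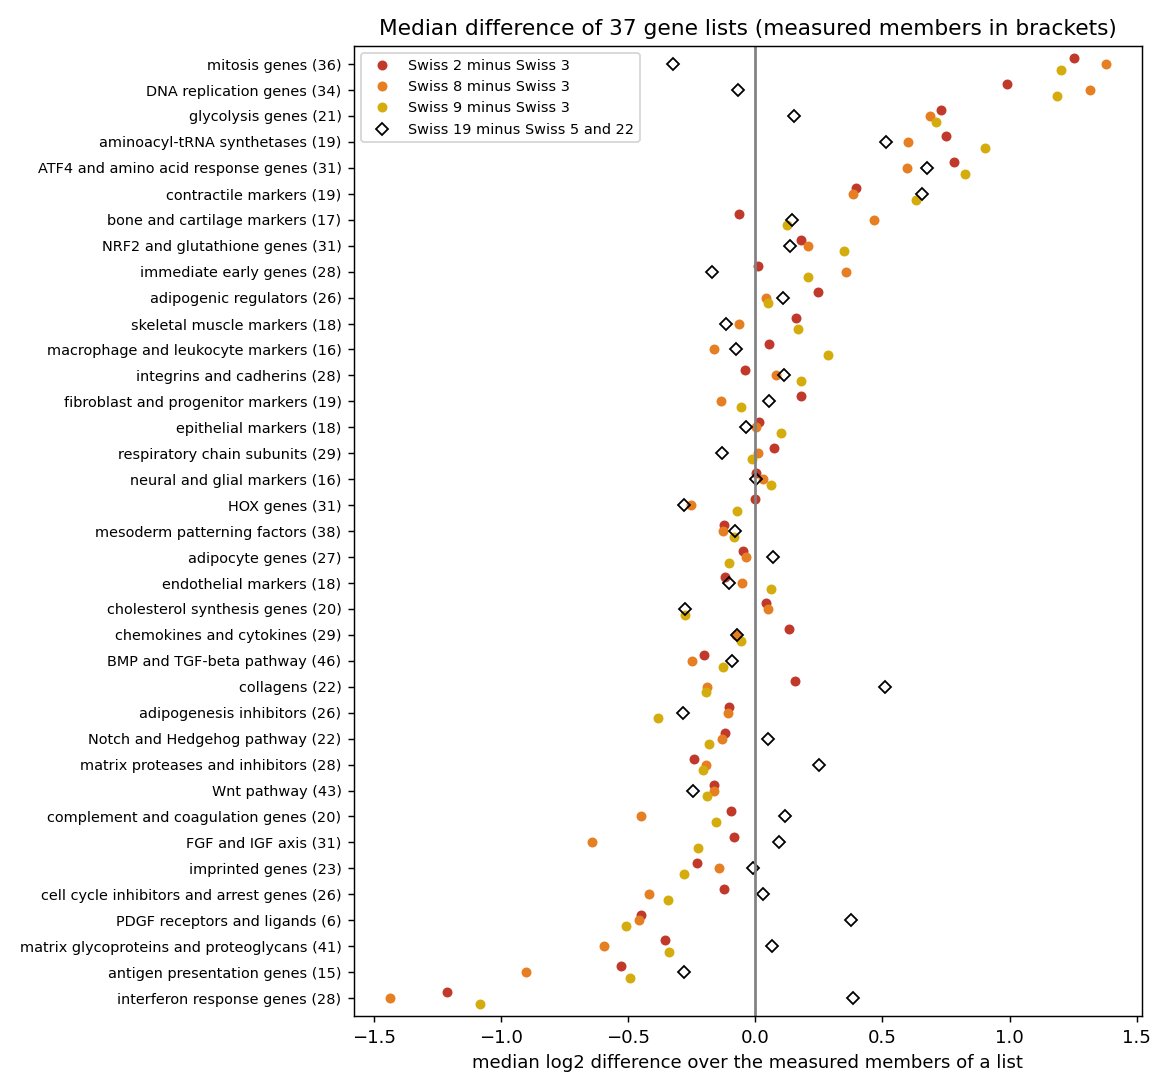
Median log2 difference (horizontal axis) over the measured members of each of 37 gene lists, for Swiss 2, Swiss 8 and Swiss 9 against Swiss 3 (filled points) and for Swiss 19 against Swiss 5 and Swiss 22 (open diamonds); the filled points share the Swiss 3 arrays. Mitosis and replication genes stand highest and interferon genes lowest for all 3 preadipose lines, whereas the diamonds for these 3 lists lie at -0.32, -0.07 and 0.38.

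Taken singly against the same Swiss 3 arrays, Swiss 2 had 1236 higher and 1217 lower genes (6.79% and 6.69%), Swiss 8 1585 and 1532 (8.71% and 8.42%), and Swiss 9 1447 and 1299 (7.95% and 7.14%). Because these contrasts share their Swiss 3 arrays, likeness between them is built in. The median of the mitosis genes was 1.25 for Swiss 2, 1.38 for Swiss 8 and 1.20 for Swiss 9. The interferon median was -1.21, -1.44 and -1.08 in the same order. A test among the preadipose lines themselves sets none of them against the level of Swiss 3. Its error nonetheless includes the spread between the Swiss 3 arrays, and the array-level tests against Swiss 3 use the same error. Some overlap of calls is therefore built in. This F test passed 526 genes (2.89%). Of the 3481 genes that differed from Swiss 3 on arrays, 308 (8.85%) also differed among Swiss 2, Swiss 8 and Swiss 9. By this test, the lines differed for 11 of 41 matrix glycoproteins, 9 of 28 matrix proteases and inhibitors, 7 of 28 immediate early genes and 6 of 31 ATF4-list genes, and for 0 of 36 mitosis genes and 2 of 28 interferon genes. The count of 526 rests on single arrays: it was 339, 223 and 256 without Swiss 2 replicates 1, 2 and 3, 302, 270 and 553 without those of Swiss 8, and 173, 179 and 124 without those of Swiss 9.

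The arrays of Swiss 19 against those of Swiss 5 and Swiss 22 compare the same classes without any of the 12 arrays above. Of the 8 genes that passed at the line level, 7 had a difference of the same sign there, Gbp6 (log2 0.35) being the exception, and for these 7 the Swiss 19 arrays lay wholly on that side of the 6 arrays of Swiss 5 and Swiss 22. Efemp1 read 3779 in Swiss 19, against 7.66 in Swiss 5 and 44.8 in Swiss 22 (log2 6.10). Lgals3 read 1952 in Swiss 19, against 26.1 in Swiss 5 and 77.1 in Swiss 22 (log2 4.67). Cyba read 5.42 in Swiss 19, against 2337 and 921 in the same 2 lines (log2 -5.26). On 7 line means in 1 limma fit, Efemp1 passed there (adjusted p = 0.0496). The others of the 8 genes did not (0.1004 to 0.862). The error of that fit also includes the spread among the preadipose lines of the main comparison, which entered the choice of the 8 genes. These p-values are therefore not a test on separate arrays, unlike the log2 differences. Fibin and Smoc2 had log2 differences of -3.51 and -3.06 between Swiss 19 and the other pair of lines, and Ifi27l2a and Fap smaller ones of -1.23 and -0.85. Over the 3481 genes that passed on arrays, 2248 (64.6%) had the same direction, against 9844 of all 18193 (54.1%).

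For the cell cycle lists the comparisons did not match. The median log2 difference of the mitosis genes was -0.32 between Swiss 19 and the other pair of lines, and 34 of 36 had a larger difference in Swiss 2, Swiss 8 and Swiss 9 against Swiss 3 in the array-level test of the difference itself, which was positive for 6.58% of all genes and negative for 6.02%. For replication genes it was 25 of 34. For the interferon list 18 of 28 had a lower difference, the median between Swiss 19 and Swiss 5 and Swiss 22 being 0.38. Summed over this list, the non-adipogenic lines Swiss 5 and Swiss 22 averaged 14790 and 15882 scaled units, against 35536 in Swiss 3. Line means were 11606 to 15269 in Swiss 2, Swiss 8 and Swiss 9, and 18929 in Swiss 19. For Ldha, the difference between the comparisons was 1.72 on the log2 scale (adjusted p = 3.88e-07 over arrays), the line means being 20869.8 in Swiss 19, against 20839.5 in Swiss 5 and 19414 in Swiss 22. At the line level no gene passed the test of the difference (0 of 18193 by limma, with 1913 at an unadjusted p under 0.05, 10.5%).

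For amino acid genes the medians were positive in both comparisons. The ATF4 list had a median of 0.67 and 29 of 31 positive differences between Swiss 19 and Swiss 5 and Swiss 22, and the synthetases a median of 0.51 with 15 of 19 positive. The array-level test of the difference between the comparisons was nonetheless positive for 7 and negative for 4 ATF4-list genes, and positive for 7 and negative for 0 synthetases. Asns read 10878 in Swiss 19, against 4143 in Swiss 5 and 4003 in Swiss 22. Lpl had a log2 difference of 4.54, more than against Swiss 3 (adjusted p of the difference = 1.11e-04 over arrays), and Igfbp4 one of 3.06, next to 2.99 against Swiss 3. Pdgfra had negative differences in both (-1.76 and -2.71), while Pdgfrb had opposite signs (1.002 and -1.03).

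**Figure D4:**
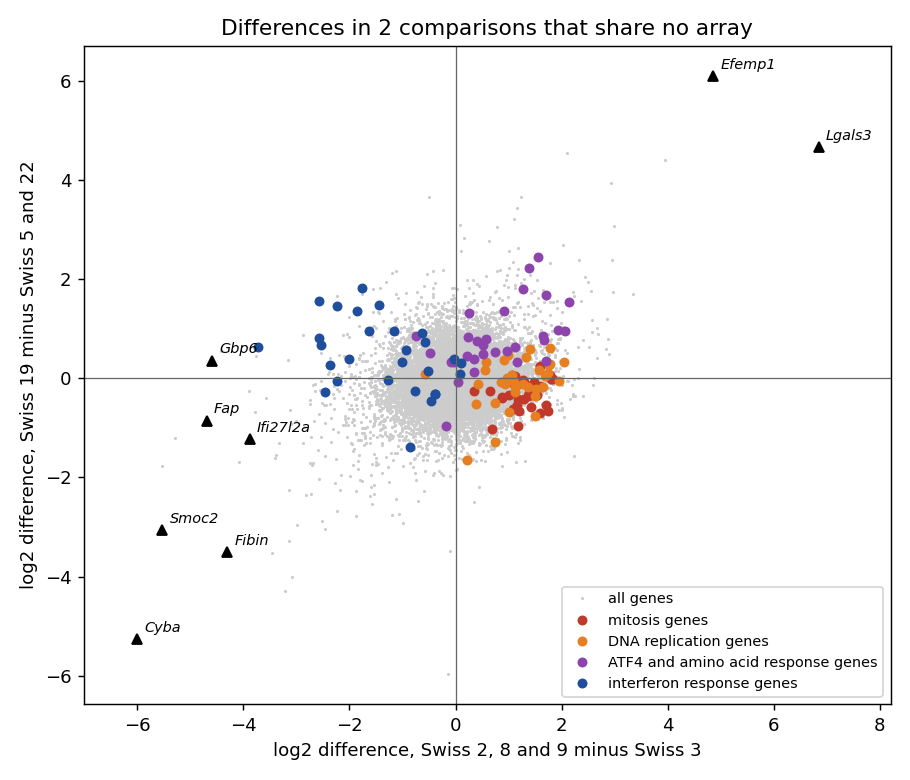
Log2 difference of Swiss 2, Swiss 8 and Swiss 9 minus Swiss 3 (horizontal) and of Swiss 19 minus Swiss 5 and Swiss 22 (vertical) for each of 18193 genes; the axes share no array, triangles mark the 8 genes of the line-level test and coloured points 4 gene lists. Mitosis genes lie right of 0 and mostly below 0 on the vertical axis, replication genes right of 0 (Orc1 excepted) and around 0 on the vertical axis, ATF4-list genes lie mostly above and right of 0, and interferon genes mostly left of 0 and above 0 on the vertical axis.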

How the data were processed

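RNA of 7 Swiss 3T3 clones was measured on 20 single-colour 3′ oligonucleotide arrays of 45101 probe sets, after oligo-dT primed amplification with biotin, per the labels' protocols. The authors deposited 1 linear intensity per probe set and array; how probes were summarized or scaled is not given in the sources used here. The values are not scaled alike: mean intensity spans 25.6 to 157 over the arrays. From these deposited intensities, each array was scaled to a 2% trimmed mean of 500, 32 was added, log2 taken, and all 20 arrays were quantile-normalized. Adding a constant shrinks the differences of dim genes. Probe sets were named from GEO's platform annotation: 34945 have 1 symbol, 932 several and 9160 none (64 controls aside), and the probe set with the highest mean stood for its gene, which left 18193 genes. Differences were tested with limma 3.58.1 (R 4.3.3; lmFit, then eBayes), p-values being adjusted over the 18193 genes by the method of Benjamini and Hochberg: on line means (line level, 2 residual degrees of freedom), on arrays with a term per line (array level), by an F test among Swiss 2, Swiss 8 and Swiss 9, and for the difference between this comparison and Swiss 19 against Swiss 5 and Swiss 22. With 4 lines, a permutation of the classes could not give a p under 0.25.

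Folds are ratios of mean scaled intensity before quantile normalization, a line below background being set to its background, which makes the fold a bound ("at least"); no interval follows from the number of arrays beyond the standard errors given. The genes named were, by rule, the 15 largest differences in each direction without overlap of arrays, called ones first, and from each of 37 gene lists (946 of 1004 entries measured) the called members or else 1 member without overlap. Other genes were named after their values were seen. The gene lists, the rule and the comparison itself were chosen with earlier results of these data known. Promoter windows are the 250 bases before the start in RefSeq's GRCm38.p6 table (14452 measured genes matched by symbol), searched on both strands. Same-numbered arrays of different lines did not deviate together (18 correlations between -0.021 and 0.031), so the numbers were not taken to pair samples. The scripts were tested on simulated data. Alternatives tried were the scaling, the pseudocount, a filter on dim genes, the probe set summary, a variance trend, the line as a random block, the replicate number as a block, and leaving out arrays or lines.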

Additional observations from a re-analysis of the deposited data

Results flagged for a closer look

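For Oasl2 and Alpl every preadipose array lay below every Swiss 3 array while both Swiss 19 arrays lay above all arrays of Swiss 5 and Swiss 22. Oasl2 had a log2 difference of -3.72 against Swiss 3 and of 0.63 in Swiss 19 against Swiss 5 and Swiss 22, a difference between the comparisons of -4.35 ± 1.04 (SE; adjusted p = 0.323 by limma on line means and 1.65e-04 over arrays). Alpl had -1.47 and 1.33, a difference of -2.80 ± 0.50 (adjusted p = 0.291 on line means and 0.0198 over arrays). Neither passed the test of the difference at the line level.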

How the results depend on the processing

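Class and clone cannot be told apart with 1 non-adipogenic clone, precision is limited by 3 arrays per line, and genes near background are bounds. The 8 genes of the line-level test became 17 with median centring in place of quantile normalization, 5 with linear scaling only, 0 at a pseudocount of 8 (which left no gene to follow in Swiss 19), 376 with the pseudocount made 4 times larger, 342 with the pseudocount added before scaling, 23 without dim genes, 758 with a variance trend, 57 with 7 line means in 1 fit, 1876 with the line as a random block of the 12 arrays and 1437 with that block and the replicate number as a replicate block; leaving out arrays or a line gave 0 to 12. The random-block fits used 1 correlation between arrays of a line for all genes (0.141, and 0.159 with the replicate number). They thus counted arrays of a line nearly as separate units. Fewer genes tested and a larger pooled spread are part of how some of the other counts are built. Otherwise the cause was not tested. The array-level count of 3481 stayed between 2539 and 4292 under every alternative run for it and was 2552 to 3497 with an array left out, 2552 without Swiss 3 replicate 3. Under median centring, higher genes made up 63.2% of it, against 50.8%, and 41.0%, 64.8% and 77.0% for Swiss 2, Swiss 8 and Swiss 9 singly, against 50.4%, 50.9% and 52.7%. Single-line counts with an array of Swiss 3 left out were 1718 to 1846 for Swiss 2, 2330 to 2460 for Swiss 8 and 2032 to 2166 for Swiss 9. The 526 genes that differed among preadipose lines became 1183 with median centring and 213 with the replicate block, and 124 to 553 with an array left out. Same-numbered arrays did not pair, 5 of 12 correlating best with their own number; the replicate block gave 3131 genes in place of 3481 and 2092, 2756 and 2346 for the single lines. The test of the difference between comparisons passed 0 genes, 2 with the larger pseudocount and 2293 with 20 arrays and 1 term per line, an alternative chosen after seeing the data; without Swiss 3 replicate 3 it passed 0. The same-direction count of 7 of 8 was 14 of 17 with median centring, 269 of 376 with the larger pseudocount, 6 of 7 without Swiss 3 replicate 3, and 2248 of 3481 for genes passing on arrays. Mitosis, replication, glycolysis and interferon medians kept their sign under every scaling; with the pseudocount added before scaling they were 0.87, 0.72, 0.51 and -0.69, and the matrix glycoprotein median -0.33 in place of -0.51, while no scaling moved the median of all genes by over 0.1.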
